A study of Mus musculus with 6 samples.

Results

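The 47 genes described here encode the machinery that copies DNA in S phase, and they were taken by name from a list of replication genes out of the 55291 genes in the deposited table. All 47 are in the table, and all 47 passed the filter for testing (at least 1 TPM in at least 3 libraries), which left 16506 genes. The list holds 10 genes of origin licensing, 6 of helicase activation, 9 of the polymerases and primase, 9 of the sliding clamp, its loader and the single-strand binding protein RPA, 4 of Okazaki fragment maturation, 4 of nucleotide supply, and 5 of chromatin assembly, maintenance methylation and E2F1.

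Polyadenylated RNA was sequenced from 6 tumours grown in mouse liver, with 1 bulk library each. All 6 were RIL-175/PD-1R tumours, RIL-175 being an established hepatocellular carcinoma line of the mouse (PD-1R is not explained in the labels), and all came from animals treated with anti-PD-1, a checkpoint-blocking antibody. The Cre_PD1 tumours (n = 3) grew in LysM-Cre mice, which carry the Cre recombinase alone, and the MKO_PD1 tumours (n = 3) grew in mice with a Trem2 knockout in myeloid cells, where LysM-Cre is active in macrophages, monocytes and neutrophils. The labels give no age and no batch, no group without anti-PD-1 is included, and p-values measure the spread between these tumours. The comparison asks what loss of Trem2 from myeloid cells of the host goes with in the tumour, so the knockout does not lie in the tumour cells themselves.

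Cells license an origin in G1 when the origin recognition complex, Cdc6 and Cdt1 load the ring-shaped Mcm2 to Mcm7 helicase. In S phase Cdc45 and the GINS complex join the ring and open the DNA, polymerase alpha with primase lays down primers, and polymerases delta and epsilon extend them, held by the PCNA clamp that the RFC complex loads. Most of these genes are transcribed at the G1 to S transition under E2F transcription factors, so their transcripts are widely used as a sign of proliferating cells; the resting liver has few such cells and a growing liver tumour has many.

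E2F proteins bind sites that combine a run of T with a G and C core, and 4 common forms, TTTCCCGC, TTTGGCGC, TTTCGCGC and TTTGCCGC, were searched on both strands of RefSeq promoter windows (build GRCm38.p6, from 250 bases before to 50 after a start), with overlapping matches counted separately. Of the 47 genes, 40 had a window. At least 1 match lay in a window of 16 of these 40 (40.0%), against 704 of 27025 genes (2.60%) in the whole table. Among 16 replication and repair genes chosen as not tied to S phase, such as Tk2 and Lig3, 1 of 13 with a window had a match (7.69%), and among 20 mitosis genes 1 of 16 (6.25%). At least 2 matches were present for 6 of the 40 replication genes (15.0%) and for 0.107% of all genes. The shorter motif CCAAT, on either strand, was in a window of 25 of the 40 (62.5%) and of 41.1% of all genes. The sequences below show matches that lie before the RefSeq start of their window and outside annotated exons, in genes of licensing, priming and chromatin copying. In Cdc6 and Uhrf1 the annotated gene begins further upstream, at 98907801 and 56303321, so these matches precede a later start. Capitals mark the E2F-type matches, read 5′ to 3′ on the strand of the gene.
Cdc6 (chr11:98907985-98908048, plus strand): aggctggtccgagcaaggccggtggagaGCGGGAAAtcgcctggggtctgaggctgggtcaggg
Mcm5 (chr8:75109330-75109393, plus strand): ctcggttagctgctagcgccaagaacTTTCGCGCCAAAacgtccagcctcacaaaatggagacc
Mcm6 (chr1:128359778-128359841, minus strand): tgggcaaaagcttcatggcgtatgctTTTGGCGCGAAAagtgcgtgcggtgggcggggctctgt
Pola1 (chrX:93632258-93632321, minus strand): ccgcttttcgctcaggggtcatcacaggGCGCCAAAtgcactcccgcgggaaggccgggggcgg
Uhrf1 (chr17:56304100-56304163, plus strand): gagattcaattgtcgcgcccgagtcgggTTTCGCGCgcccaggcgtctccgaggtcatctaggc
In Mcm5 and Mcm6 the capitals hold 2 overlapping matches, 1 on each strand. A match in these letters is a description of the sequence and does not show that a factor binds there.

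Before the genes themselves, the libraries need a description. They held 26747236 to 34264909 recovered reads. Trem2 was at 10.54, 16.5 and 14.9 TPM in Cre_PD1 and 7.68, 18.0 and 6.81 TPM in MKO_PD1 replicates 1, 2 and 3 (log2 difference -0.44, SE 0.40, limma adjusted p = 0.432; exact two-sided permutation p = 0.4, where 0.1 is the smallest this design allows). The Trem2 difference depended on the libraries and the scaling: it was -0.84 without MKO_PD1 replicate 2 (limma adjusted p = 0.0450), -0.20 without MKO_PD1 replicate 3 (limma adjusted p = 0.789), -0.075 with quantile normalization (limma adjusted p = 0.871) and -0.0068 with median-of-ratios factors (limma adjusted p = 0.991). Reads over the whole gene do not measure the deleted part, which the labels do not name. Hepatocyte markers (23 genes) took 1.94 to 3.75% of TPM in Cre_PD1 and 18.7, 4.70 and 13.3% in MKO_PD1 replicates 1, 2 and 3. Markers of the liver tumour epithelium (12 genes, among them keratins and Spp1) took 1.85 to 2.53% in Cre_PD1 and 0.253, 1.02 and 0.685% in MKO_PD1. All 23 hepatocyte markers had a higher mean in MKO_PD1 and all 12 epithelial markers a lower one. None of the markers of either list was at 0 in all libraries. In bulk RNA, fewer tumour cells and less of a transcript per cell cannot be told apart.

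The replication genes were low in 2 of the 3 MKO_PD1 tumours and nearer to the control level in the other. Their summed level was 1814, 1615 and 1758 TPM in Cre_PD1 replicates 1, 2 and 3, and 457, 1547 and 863 TPM in MKO_PD1 replicates 1, 2 and 3. For the median gene, MKO_PD1 replicate 1 stood at 23.2% of the Cre_PD1 mean, replicate 3 at 50.01% and replicate 2 at 92.3%. The same medians over all tested genes were 47.4, 71.1 and 98.6%. MKO_PD1 replicate 1 was the lowest of the 6 libraries for 45 of 47 genes (95.7%, against 69.9% of all tested genes). In these same 45 genes replicates 1 and 3 both lay below every Cre_PD1 library, and replicate 1 lay below replicate 3, which lay below replicate 2 (95.7%, against 55.7% of all tested genes). The 2 genes outside this pattern were Mcm10 and Dna2. MKO_PD1 replicate 2 lay below every control for 20 of the 47 genes (42.6%, against 31.3% of all tested genes). It lay inside the control range for 21 (44.7%, against 36.8%) and above it for 6 (12.8%, against 31.9%).

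**Figure D1:**
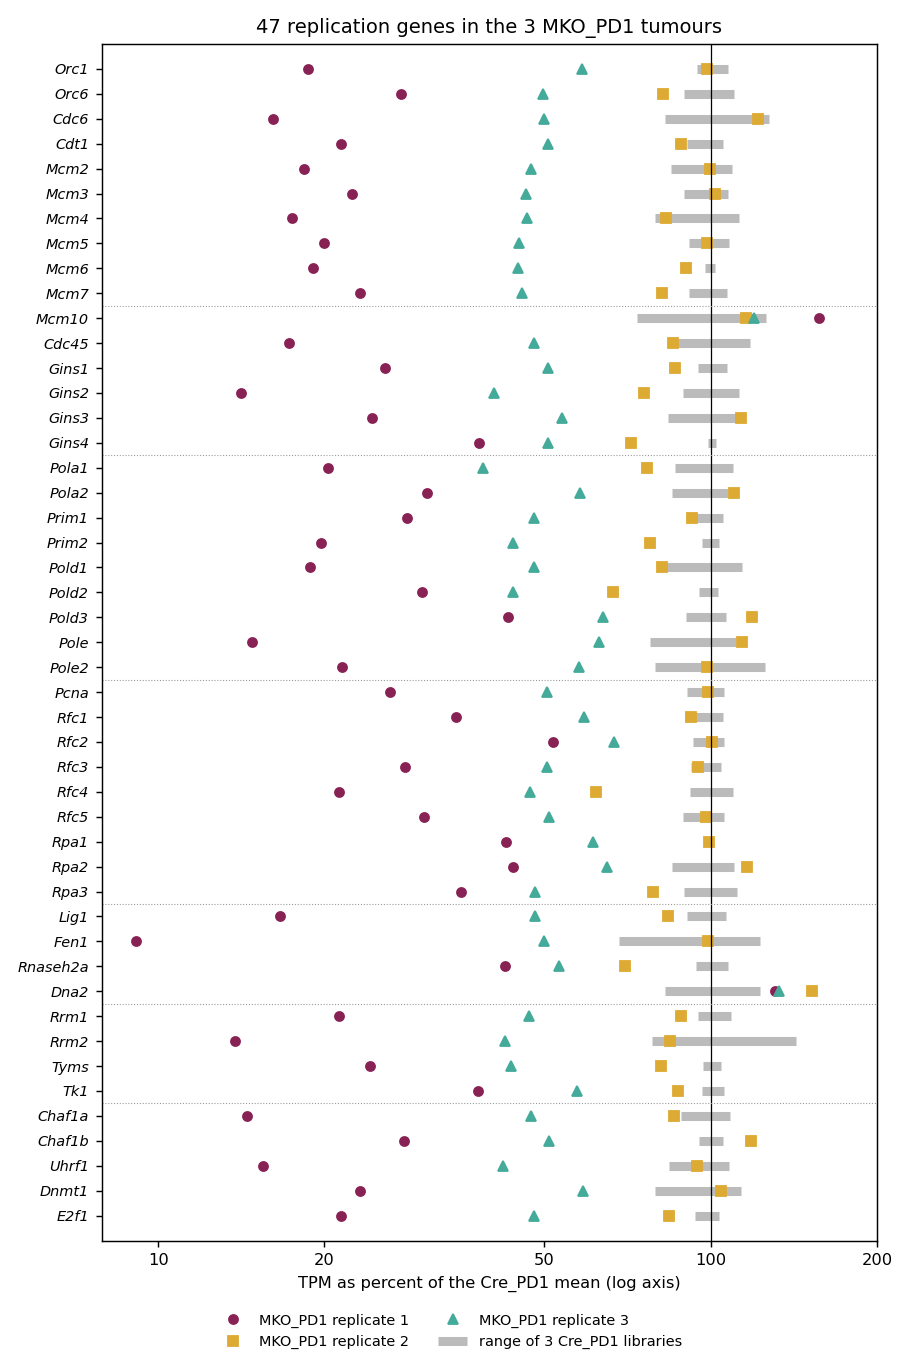
Level of each of the 47 genes in the 3 MKO_PD1 tumours as a percentage of the Cre_PD1 mean (x axis, log scale), with grey bars for the range of the 3 Cre_PD1 libraries and dotted lines between functional groups. Replicate 1 and replicate 3 lie left of the grey bar for 45 genes, around medians of 23.2 and 50.01%. Replicate 2 lies around a median of 92.3%, from 61.9 to 153%. Mcm10 and Dna2 lie outside this pattern, Mcm10 by its order and Dna2 by lying right of the grey bar in all 3 tumours.

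Between the groups, no replication gene passed the test (limma, adjusted over all 16506 genes, threshold 0.05): adjusted p ran from 0.168 to 0.374. The background was as thin, with 2 of 16506 genes called (0.0121%). At an unadjusted p under 0.05 there were 21 of 47 replication genes, all lower in MKO_PD1 (44.7%), where 19.5% of all tested genes were lower and 8.47% higher at that level. The log2 difference, MKO_PD1 minus Cre_PD1 on log2(TPM + 1), was below 0 for 45 of 47 genes (72.9% of all genes), with a median of -0.96 against -0.42 over all genes. Other scalings brought both medians nearer to 0, to -0.49 against -0.018 with median-of-ratios factors and -0.57 against -0.10 with quantile normalization. With the values as deposited the medians were -0.54 against -0.13. Those columns sum to only 70363 to 105281, so the added 1 weighs more there and itself shrinks differences. Single genes moved with the scaling: with median-of-ratios factors Orc6 went from -1.01 to -0.55 and Pold3 from -0.50 to -0.053. The groups did not overlap for 20 genes that were lower in MKO_PD1 (42.6%, against 28.9% of all genes) and for 1 that was higher, Dna2 (2.13%, against 10.1%). MKO_PD1 replicate 2 decided the call. Without it, 43 of 47 genes passed, all lower, where 38.0% of all genes passed and were lower and 7.88% passed and were higher; the median was then -1.38 against -0.66 over all genes, and the genes that did not pass were Mcm10, Dna2, Fen1 and Pole. With array quality weights 45 passed as lower and Dna2 as higher, where 56.8% of all genes passed as lower and 16.2% as higher, but those weights rested almost wholly on MKO_PD1 replicate 3. MKO_PD1 replicate 2 also had the hepatocyte share nearest to the control tumours.

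**Figure D2:**
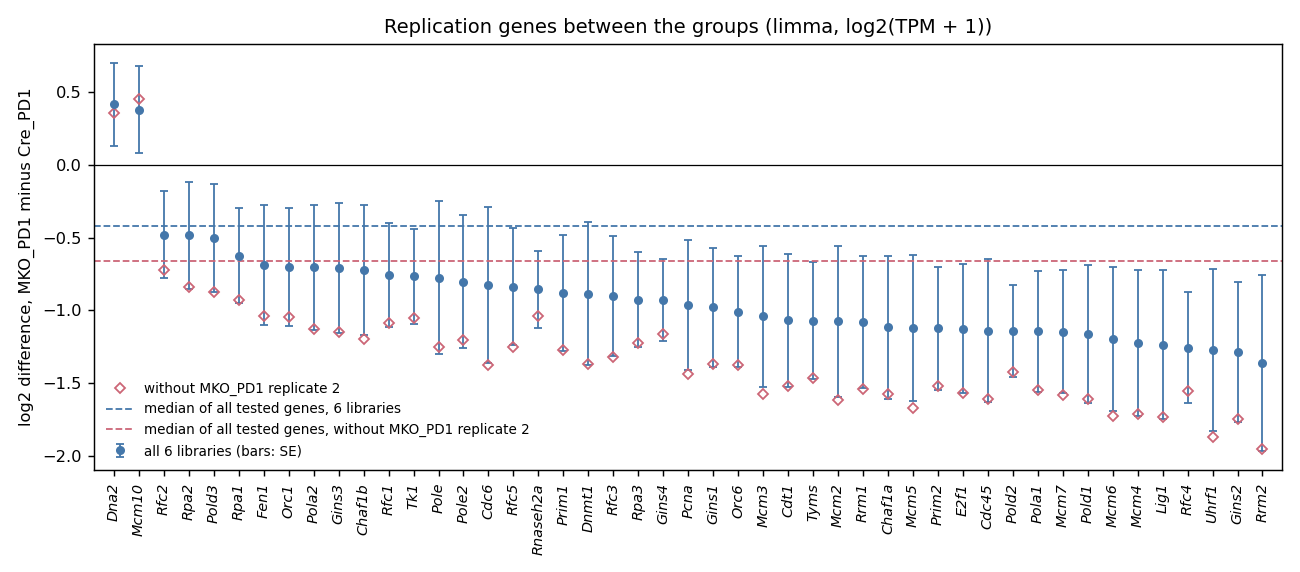
Log2 difference of each gene between MKO_PD1 and Cre_PD1 (y axis; filled points with SE for all 6 libraries, open diamonds without MKO_PD1 replicate 2), ordered along the x axis, with dashed lines at the medians of all tested genes (-0.42 and -0.66). Apart from Dna2 and Mcm10 every gene lies below 0, and leaving out the replicate lowers each of these 45.

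The licensing genes were among the lower ones, all 10 below 0 with a median log2 difference of -1.07 (5 of 10 at an unadjusted p under 0.05 and lower, against 19.5% of all tested genes, and 4 of 10 with groups that did not overlap, against 28.9%). Orc6, a subunit of the origin recognition complex, was at 44.8, 49.3 and 40.1 TPM in Cre_PD1 and at 12.3, 36.7 and 22.2 TPM in MKO_PD1. Each MKO_PD1 tumour lay below each control (log2 difference -1.01, SE 0.38, limma adjusted p = 0.168). Orc1, the largest subunit of that complex, was at 4.30, 3.78 and 3.90 TPM and at 0.745, 3.94 and 2.34 TPM, from 34 to 158 reads per library, so that replicate 2 lay inside the control range. Cdc6, the loader that brings the helicase to the origin, was at 6.88, 6.34 and 9.78 TPM and at 1.24, 9.36 and 3.83 TPM, again with replicate 2 inside the control range. Cdt1, its partner in loading, was at 43.4, 37.2 and 42.7 TPM and at 8.82, 36.4 and 20.9 TPM, with no overlap.

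The 6 genes of the helicase ring had nearly the same pattern. Mcm2 was at 28.6, 22.1 and 27.6 TPM in Cre_PD1 and 4.79, 26.1 and 12.4 TPM in MKO_PD1. Mcm6 was at 81.4, 79.5 and 82.9 TPM and at 15.5, 73.4 and 36.4 TPM, and Mcm7 at 81.6, 73.4 and 86.3 TPM and at 18.7, 65.7 and 36.6 TPM. For these last 2 genes every MKO_PD1 tumour lay below every control, whereas Mcm2 overlapped through replicate 2. Mcm3 (60.6 ± 5.71 against 34.4 ± 24.7 TPM, mean ± SD), Mcm4 (50.3 ± 9.04 against 24.7 ± 16.5 TPM) and Mcm5 (54.3 ± 4.45 against 29.5 ± 21.7 TPM) overlapped in the same way. Across the ring, MKO_PD1 replicate 1 stood at 17.5 to 23.2% of the control mean, replicate 3 at 44.8 to 47.3% and replicate 2 at 81.7 to 102%. The proteins form a ring with 1 copy of each, but the transcripts were unequal in every tumour: Mcm2 was the lowest and Mcm6 or Mcm7 the highest, 2.81 to 3.89 times Mcm2 in TPM.

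**Figure D3:**
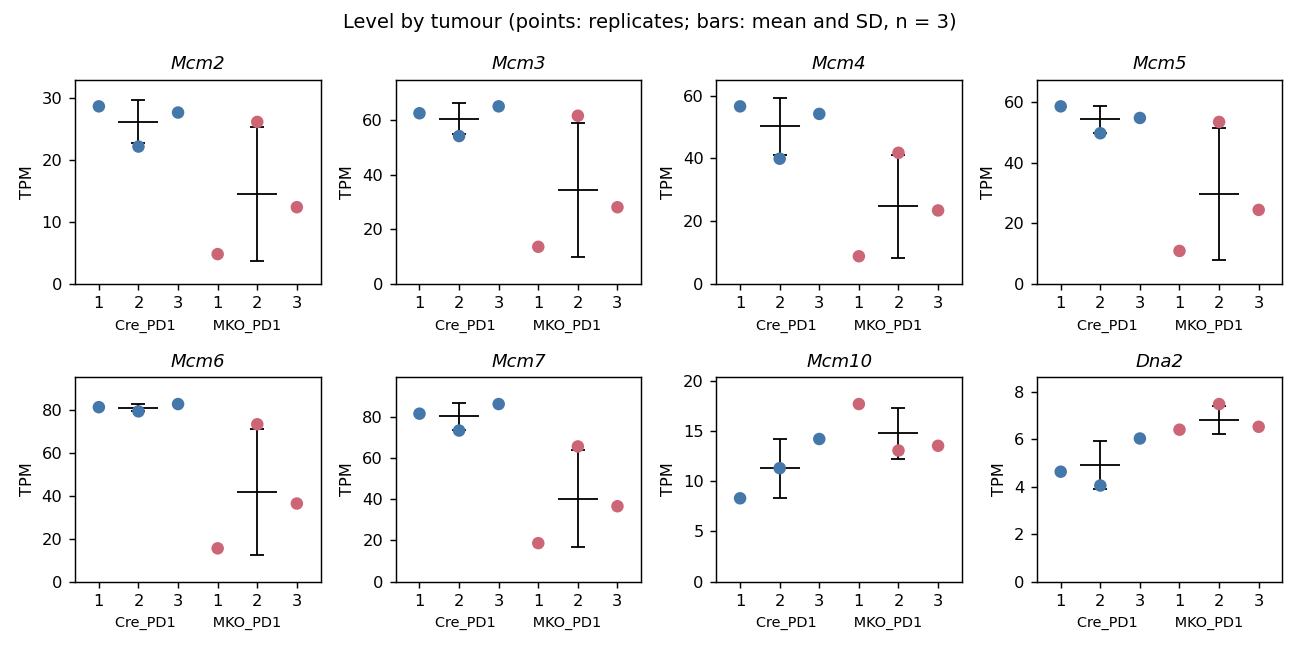
TPM (y axis, from 0) of the 6 helicase ring genes, Mcm10 and Dna2 in each tumour (x axis, replicates 1 to 3 of each group; bars are mean and SD, n = 3). The ring genes share 1 pattern, low in MKO_PD1 replicates 1 and 3 and near control in replicate 2, while Mcm10 is highest in MKO_PD1 replicate 1 at 17.7 TPM and Dna2 lies at 6.41 to 7.49 TPM in MKO_PD1 against 4.05 to 6.04 TPM in Cre_PD1.

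Among the genes that activate the helicase, Cdc45 and the GINS genes followed the ring and Mcm10 did not. Cdc45 was at 17.4, 19.4 and 23.8 TPM in Cre_PD1 and 3.48, 17.2 and 9.66 TPM in MKO_PD1, without overlap (log2 difference -1.14, SE 0.49, limma adjusted p = 0.178). Gins2 had the second lowest difference of the list, -1.29 (SE 0.48, limma adjusted p = 0.168), at 16, 14 and 12.7 TPM and at 2.01, 10.8 and 5.77 TPM. Gins4 was at 77.5, 75.1 and 75.2 TPM and at 28.9, 54.5 and 38.6 TPM. Its 3 controls spread by an SD of 1.37 TPM, and all 3 MKO_PD1 tumours lay below them. Gins1 was also without overlap and Gins3 was not. The GINS proteins assemble as 1 copy of each, yet Gins4 exceeded Gins3 in every tumour, by 6.80 to 16.9 times in TPM.

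Mcm10, which joins the helicase when it is switched on and is not part of the ring, was at 8.30, 11.3 and 14.2 TPM in Cre_PD1 and at 17.7, 13.1 and 13.5 TPM in MKO_PD1. The groups overlapped, and the difference of 0.38 (SE 0.30) did not pass (limma adjusted p = 0.374). Its highest tumour, MKO_PD1 replicate 1, was the tumour in which each of the 6 ring genes was lowest, and it rests on 1785 reads there against 649 to 1044 in the controls. The gene lies on the minus strand of chromosome 2 (4989714 to 5012791, GRCm38), and none of its 7692 exon bases lie in an exon of another annotated gene. The difference was above 0 under each other rescaling, from 0.52 with the hepatocyte list removed to 0.83 with median-of-ratios factors. With the values as deposited, where the added 1 weighs more, it was 0.28. It turned to -0.16 with the hepatocyte marker mean as a covariate, a fit that cannot tell group and hepatocyte share apart.

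The polymerase and primase genes were all 9 below 0, with a median of -0.88. Pola1, the catalytic subunit of polymerase alpha, was at 12.51, 9.81 and 11.8 TPM in Cre_PD1 and 2.31, 8.72 and 4.399 TPM in MKO_PD1, and Prim2, the large primase subunit, at 13.4, 12.49 and 12.95 TPM and at 2.56, 10.1 and 5.68 TPM. Neither overlapped between the groups. Their partners Pola2 (18.1 ± 2.35 against 12.0 ± 7.33 TPM) and Prim1 (13.4 ± 0.983 against 7.54 ± 4.42 TPM) did. Pold2, an accessory subunit of polymerase delta, had the smallest p of the 47 genes. It was at 71.7, 67.5 and 72.9 TPM and at 21.2, 47.1 and 31 TPM (log2 difference -1.14, SE 0.31, limma adjusted p = 0.168), and unlike most of the list it was clearly below the controls in MKO_PD1 replicate 2 as well, at 66.7% of their mean. The catalytic subunit Pold1 was at 35.8, 25.5 and 33.0 TPM and at 5.92, 25.7 and 15.0 TPM, and Pold3 at 24.8, 21 and 24.1 TPM and at 10.03, 27.7 and 14.9 TPM, so replicate 2 was inside the control range for the first and above it for the other. Pole, the catalytic subunit of polymerase epsilon, was at 7.71, 5.38 and 7.68 TPM and at 1.02, 7.89 and 4.35 TPM, and its partner Pole2 at 8.75 ± 2.05 against 5.18 ± 3.37 TPM.

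Of the clamp, clamp loader and RPA genes, all 9 were below 0 (72.9% of all tested genes were) and 2 separated the groups, Rfc4 and Rpa3, a smaller share than the 28.9% of all tested genes. Pcna, the sliding clamp and the most abundant transcript of the list in 5 of 6 tumours, was at 189, 217 and 221 TPM in Cre_PD1 and 54.8, 207 and 106 TPM in MKO_PD1, a log2 difference of -0.96 (SE 0.45, limma adjusted p = 0.190). Replicate 2 was inside the control range. Rfc4 was at 30.9, 34.3 and 28.7 TPM and at 6.67, 19.4 and 14.7 TPM, with replicate 2 at 61.9% of the control mean, the lowest of any member in that tumour. Rfc2, a subunit of the same complex, was at 26.4, 24.4 and 27.7 TPM and at 13.6, 26.3 and 17.5 TPM, and had the difference nearest to 0 among the 45 lower genes (-0.48, SE 0.30). Rfc1, Rfc3 and Rfc5 lay between Rfc4 and Rfc2, at -0.76, -0.90 and -0.84. RPA coats single-stranded DNA in repair as well as replication. Its large subunit Rpa1 was at 36.7, 36.4 and 37.2 TPM and at 15.7, 36.5 and 22.5 TPM, Rpa2 was at 19.9 ± 2.61 against 14.9 ± 7.44 TPM, and Rpa3 was at 39.0 ± 4.31 against 21 ± 8.68 TPM.

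Okazaki fragments are trimmed by Fen1 and Dna2, freed of their RNA with the help of RNase H2 and sealed by Lig1, and the 4 genes of this step did not share 1 direction. Lig1 was at 48.7, 43.0 and 50.7 TPM in Cre_PD1 and 7.90, 39.8 and 22.9 TPM in MKO_PD1 and Rnaseh2a at 45.8, 42.0 and 40.2 TPM and at 18.1, 29.9 and 22.7 TPM, both without overlap and both lower in MKO_PD1. Dna2 was at 4.63, 4.05 and 6.04 TPM and at 6.41, 7.49 and 6.53 TPM. It was the only member whose MKO_PD1 tumours all lay above the controls, with a difference of 0.41 (SE 0.28) that did not pass (limma adjusted p = 0.313). The difference was above 0 under each other rescaling, from 0.54 with the hepatocyte list removed to 0.83 with median-of-ratios factors. With the values as deposited, where the added 1 weighs more, it was 0.20. With single libraries left out it ran from 0.31 to 0.55. With the hepatocyte marker mean as a covariate it was 0.49 (limma adjusted p = 0.9998), but that fit cannot tell group and hepatocyte share apart. Alternatives that changed only the filter, the variance trend, the moderation or the threshold cannot move the difference of Dna2. With array quality weights it was 0.38, and with limma voom on recovered reads 0.62. The gene lies on the plus strand of chromosome 10 (62947026 to 62974185), shares none of its 5878 exon bases with another annotated gene, and had 277 to 494 reads per library.

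Fen1 was the lowest transcript of the list in all 6 tumours, at 2.64, 1.65 and 2.97 TPM in Cre_PD1 and 0.220, 2.40 and 1.21 TPM in MKO_PD1, from 65, 48 and 63 reads and 7, 58 and 31 reads. Of its 2422 exon bases (chromosome 19, 10199132 to 10204169, minus strand), 84.2% lie within exons of other annotated genes on the opposite strand, 1909 bases in the antisense gene Gm10143 and 130 in Tmem258. Gm10143 itself had 4 to 16 reads. The labels do not say whether reads were counted by strand or how reads in 2 genes were treated, so the level of Fen1 against other members is uncertain. Overlaps of over 50% were also present for Gins2 (67.3%, with Gse1) and Chaf1a (52.5%, with Ubxn6), and 13 further members had smaller ones, up to 15.1% for Rfc2.

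The 4 nucleotide supply genes had a median difference of -1.08, and 3 of them, Rrm1, Tyms and Tk1, separated the groups, as 28.9% of all tested genes did in that direction. Rrm2, the subunit of ribonucleotide reductase made in S phase, was at 207, 115 and 114 TPM in Cre_PD1 and 20.01, 123 and 61.7 TPM in MKO_PD1. It had the lowest difference of the list (-1.36, SE 0.60, limma adjusted p = 0.182), and it was the most abundant transcript of the list in Cre_PD1 replicate 1, where it stood above the other controls. Its partner Rrm1 was at 28.8, 25.1 and 25.3 TPM and at 5.62, 23.4 and 12.4 TPM, so that Rrm2 exceeded Rrm1 by 3.56 to 7.17 times in TPM. Tyms, thymidylate synthase, was at 18.7, 17.3 and 17.7 TPM and at 4.33, 14.6 and 7.80 TPM, and Tk1, the thymidine kinase of S phase, at 33.8, 33.2 and 36.4 TPM and at 13.1, 30.1 and 19.7 TPM.

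All 5 genes of chromatin copying and control were below 0, with a median of -1.11. Uhrf1, which brings the methyltransferase to hemimethylated DNA behind the fork, was at 55.5, 43.2 and 55.2 TPM in Cre_PD1 and 7.95, 48.4 and 21.6 TPM in MKO_PD1, a log2 difference of -1.27 (SE 0.56, limma adjusted p = 0.180). Dnmt1, the maintenance methyltransferase, was at 53.9, 37.8 and 51.0 TPM and at 11, 49.7 and 27.9 TPM. Chaf1a and Chaf1b, subunits of the chromatin assembly factor that deposits histones on new DNA, were at 10.9 ± 1.13 against 5.35 ± 3.88 TPM and at 10.2 ± 0.497 against 6.69 ± 4.79 TPM. E2f1, a transcription factor that drives this programme and is itself an E2F target, was at 44.2, 39.9 and 44 TPM and at 9.14, 35.8 and 20.5 TPM, with no overlap. Members with and without an E2F-type match in a promoter window had median differences of -1.06 (16 genes) and -0.90 (24 genes), a description of 2 overlapping ranges (-1.27 to -0.50 and -1.36 to 0.41).

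The order of the members by level was similar from tumour to tumour. Spearman correlations of the 47 levels between 2 libraries ran from 0.822 to 0.990, across genes, which are not independent replicates. Control tumours differed little from each other, with list means of log2(TPM + 1) of 4.75, 4.62 and 4.79 (SD 0.090), and the MKO_PD1 tumours differed more, with 2.99, 4.61 and 3.86 (SD 0.81); this difference in spread was not tested.

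Beyond the members, 10 lists were followed, 8 of replication and the entry into S phase, 1 of mitosis and 1 of counterparts chosen as not tied to S phase. Of their 133 genes 131 were tested, and 127 were below 0 and 4 above, where 72.9% of all tested genes were below 0. Of these, 0 passed the limma test over all genes; at an unadjusted p under 0.05 there were 40 lower genes and 1 higher (19.5 and 8.47% of all tested genes), and 16 of the 40 were mitosis genes. Without MKO_PD1 replicate 2, 91 passed, where 38.0% of all genes passed as lower and 7.88% as higher. Of other licensing and firing factors, 14 of 14 were below 0 (median -0.87), 1 of them at an unadjusted p under 0.05, Gmnn. Gmnn, the inhibitor of Cdt1, averaged 44.1 ± 7.41 TPM in the control tumours and 24.6 ± 11.6 TPM in MKO_PD1. Dbf4, the activator of the firing kinase, was at 13.7 ± 0.732 and 6.80 ± 4.86 TPM. All 15 fork and checkpoint factors were below 0 (median -0.61). Only 1 of the 15 was at an unadjusted p under 0.05, and 1 separated the groups. Both shares were below those of all tested genes (19.5 and 28.9%). That gene was the topoisomerase gene Top2a, the lowest of its list (-1.39), at 104 ± 12.4 and 49.6 ± 36.7 TPM. All 10 tested further polymerase and loader subunits were below 0 (median -0.67), among them the small polymerase delta subunit Pold4 at 161 ± 39.6 and 68.1 ± 19.8 TPM. All 9 further chromatin factors were below 0 (median -0.63), with the histone chaperone gene Ssrp1 at 198 ± 18.0 and 98.9 ± 43.0 TPM.

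Of 14 further nucleotide supply genes, 12 were below 0 (median -0.68), such as Dut, which removes dUTP, at 119 ± 17.3 and 50.4 ± 33.4 TPM, and Impdh2, of guanine nucleotide synthesis, at 182 ± 22.1 and 88.3 ± 39.2 TPM. Shmt1, a serine and folate enzyme also abundant in liver, was named after its values were seen. It was at 28.1, 37.8 and 40.9 TPM in Cre_PD1 and at 74.5, 41.0 and 80.6 TPM in MKO_PD1. All 3 MKO_PD1 tumours lay above the controls, replicate 2 by a narrow margin, and the difference of 0.82 (SE 0.32) did not pass (limma adjusted p = 0.169), though it did without MKO_PD1 replicate 2 (limma adjusted p = 0.0290).

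Of the E2F and RB family, 16 of 16 were below 0 with a median of -0.64. E2f4, an E2F of repressor complexes, was at 99.7 ± 10.2 and 57.3 ± 25.8 TPM, and E2f7 and E2f8, repressors that are E2F targets themselves, at 2.45 ± 0.360 and 1.62 ± 1.34 TPM (E2f7) and 12.2 ± 4.22 and 7.45 ± 2.76 TPM (E2f8). The activator E2f2 was at 6.50 ± 0.708 and 5.93 ± 3.41 TPM, a difference of -0.22 that turned to 0.18 with median-of-ratios factors and 0.079 with quantile normalization. The RB relative Rbl1 was at 18.5 ± 1.49 and 11.9 ± 9.14 TPM. All 11 cyclins and kinases of G1 and S were below 0 (median -0.93), with Cdk4 at 220 ± 14.8 and 102 ± 47.5 TPM, Ccna2 at 83.2 ± 10.4 and 35.6 ± 26.1 TPM and Ccnd1 at 178 ± 36.1 and 86.5 ± 64.4 TPM.

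Of 7 CDK inhibitors, which hold cells out of S phase, the 6 tested were below 0 (median -1.01). The other, Cdkn1c, was too low to be tested and lay higher in all 3 MKO_PD1 tumours (1.05 ± 0.329 TPM against 0.586 ± 0.216 TPM, from 7 to 30 reads per library). The margin was narrow, with MKO_PD1 replicate 2 at 0.736 TPM (15 reads) against 0.727 TPM (13 reads) in Cre_PD1 replicate 3. Of all tested genes, 10.1% lay higher without overlap. Cdkn2a was at 426, 345 and 423 TPM in Cre_PD1 and 29.1, 167 and 104 TPM in MKO_PD1, a log2 difference of -2.29 (SE 0.57, limma adjusted p = 0.168) and its neighbour Cdkn2b at 113 ± 18.2 and 31 ± 20.4 TPM. For both, all 3 MKO_PD1 tumours lay below all controls. Cdkn1a, the p53 target, was at 143, 77.2 and 57.7 TPM and at 23.2, 93.4 and 54.2 TPM, with overlap.

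Genes of mitosis had a lower median than the replication genes: 20 of 20 were below 0 with a median of -1.46, and 16 of them separated the groups, where 72.9% of all tested genes were below 0 and 28.9% separated the groups in that direction. Aurka, a spindle kinase, was at 56.6 ± 6.17 and 22.7 ± 14.8 TPM and Cdc20, which starts anaphase, at 99.8 ± 13.1 and 38.3 ± 27.1 TPM. Within each library, the mean of the replication genes minus that of the mitosis genes was -0.77 to -0.63 log2 units in Cre_PD1, -0.43 and -0.40 in MKO_PD1 replicates 2 and 3, and 0.23 in MKO_PD1 replicate 1. Counterparts chosen as not tied to S phase had smaller differences, with a median of -0.49 over 16 genes against -0.42 over all genes. Some of them, such as Rad1, Polh and Polk, can also act at replication forks. Tk2, the mitochondrial thymidine kinase, was at 26.2 ± 1.48 and 23.0 ± 6.65 TPM where Tk1 was at 34.4 ± 1.69 and 21 ± 8.59 TPM. The difference of Tk2 was -0.21, and it was 0.24 with median-of-ratios factors and 0.19 with quantile normalization. Lig3, of base excision repair and mitochondria, was at 12.6 ± 2.43 and 8.47 ± 2.60 TPM, and Rrm2b, the reductase subunit of resting cells, at 7.35 ± 0.920 and 4.06 ± 2.25 TPM. Of the relatives of the ring genes that act in recombination, Mcm9 was at 2.56 ± 0.493 and 2.59 ± 0.637 TPM, whereas Mcm8 was at 9.57 ± 0.116 and 4.69 ± 3.14 TPM. Whether these lists differ from the replication genes was not tested.

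**Figure D4:**
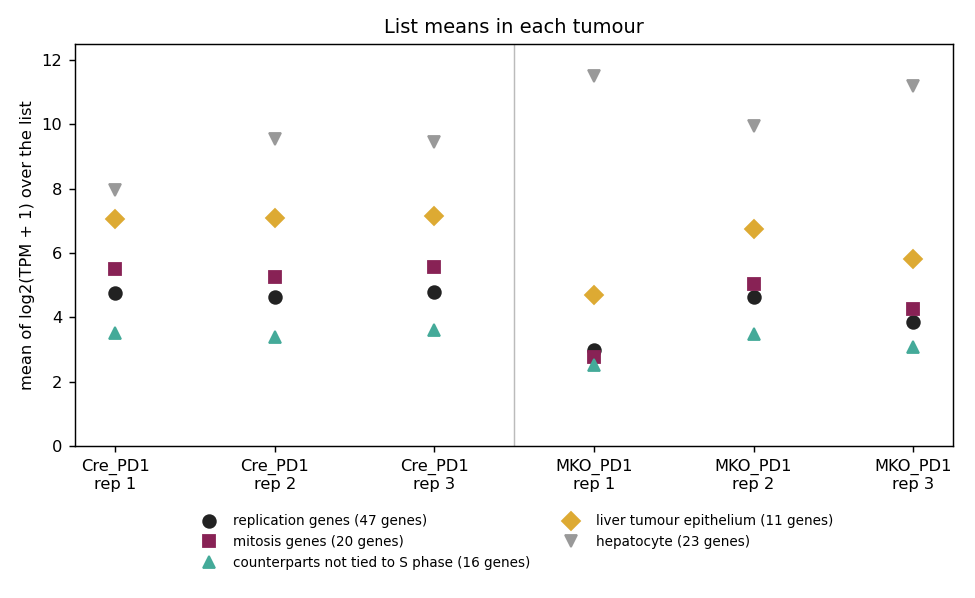
Mean of log2(TPM + 1) (y axis) over the replication, mitosis, counterpart, tumour epithelium and hepatocyte lists in each of the 6 tumours (x axis). Replication, mitosis and tumour epithelium means are lowest in MKO_PD1 replicate 1 (2.99, 2.76 and 4.71), where the hepatocyte mean is highest (11.5).

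Tumours low in replication genes were low in tumour epithelium markers and high in hepatocyte markers. The mean of the 11 tested epithelial markers was 7.07, 7.08 and 7.14 in Cre_PD1 and 4.71, 6.76 and 5.80 in MKO_PD1 replicates 1, 2 and 3, and that of the hepatocyte markers 7.95, 9.54 and 9.45 and then 11.5, 9.96 and 11.2. Relative to the epithelial mean of the same library, the replication mean was higher in each MKO_PD1 tumour than in each control. It stood at -2.31, -2.46 and -2.36 in Cre_PD1 and at -1.72, -2.14 and -1.95 in MKO_PD1. The epithelial markers had the lower median log2 difference, -1.47 against -0.96. What this ratio reflects was not tested. Relative to the mean of 14 macrophage markers the replication mean was lower, at -1.94, -2.35 and -2.17 and at -3.91, -3.34 and -3.26. Markers of T and NK cells took 0.0168 to 0.0309% of TPM in Cre_PD1 and 0.0111, 0.0829 and 0.0166% in MKO_PD1 replicates 1, 2 and 3. At near equal shares, 0.0168% in Cre_PD1 replicate 1 and 0.0166% in MKO_PD1 replicate 3, the replication means were 4.75 and 3.86. These 2 tumours also differed in hepatocyte share (1.94 and 13.3%), so the pair does not isolate T and NK cells. MKO_PD1 replicate 2 was the highest of all 6 for T and NK cell markers. It was also the highest for macrophage markers (0.742%, against 0.298 to 0.388% in the others), neutrophil markers (0.130%, against 0.0147 to 0.0496%) and fibroblast markers (0.236%, against 0.0268 to 0.128%). Whether these cells add to the replication level was not tested. With the hepatocyte list left out of the scaling, the median difference of the replication genes was -0.82, against -0.30 over all genes. With the hepatocyte mean as a covariate it was -0.035, with 31 genes below 0 and 16 above; the hepatocyte mean was higher in each MKO_PD1 tumour than in each control, so this fit cannot tell group and hepatocyte share apart. The part of cell content in the differences was not tested otherwise.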

How the data were processed

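RNA was measured in 6 tumours, and the members and gene lists were chosen with earlier results of these data known. Per the submitters' processing notes, STAR 2.7.10a, featureCounts 2.0.3 of Subread and build mm10 were used; how the values were then made is not given in the sources used here. The authors deposited 1 length-normalised read signal per gene and library, under the name TPM but with column sums of 70363 to 105281. Each value times the GENCODE M21 exon length, divided by 8.03, was a whole read number within 0.001 reads for 29352 of 29798 genes (98.5%), so the deposited signal keeps read depth. The test had been planned for TPM, so here columns were rescaled to 1000000, which gives TPM, and log2(TPM + 1) was tested with limma 3.58.1 in R 4.3.3 (mean-variance trend, no covariate), with Benjamini-Hochberg adjustment over 16506 genes. The procedure was tested on simulated counts without a library-wide shift or an outlying tumour, so that test does not cover the spread seen here. The text names the 47 members, Trem2, the 4 genes of smallest p in each pathway list or any gene of the counterpart, E2F and RB, and CDK inhibitor lists, and Shmt1. The effect of alternatives is given at the end. Groups are said not to overlap where every value of one lies beyond every value of the other.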

Additional observations from a re-analysis of the deposited data

How the results depend on the processing

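Of 21 alternatives, the count of replication genes called moved from 0 under 2: without MKO_PD1 replicate 2 it was 43 (range 0 to 43 over single libraries left out), and with array quality weights 46, a fit that put a weight of 498300 on MKO_PD1 replicate 3 and 0.0169 to 0.256 on the others and did not converge. The same fits called 91 (range 0 to 91) and 121 other pathway genes, where 0 were called otherwise. Over all genes the count was 2, and it was 12056 with quality weights, 1 with median-of-ratios factors, 0 with no filter, a 5 TPM filter, quantile normalization, the hepatocyte covariate, voom on recovered reads or the replicate block, and 0 to 7314 with single libraries left out. The median of the replication genes minus that of all genes was -0.55, -0.86 with no filter (more low genes in the background), -0.039 with the hepatocyte covariate, and -0.72 to -0.36 with single libraries left out. Scaling moved the medians of all genes and of the replication genes from -0.42 and -0.96 to -0.018 and -0.49 (median-of-ratios), -0.10 and -0.57 (quantile) and -0.30 and -0.82 (hepatocyte list removed). With the values as deposited, where the added 1 weighs more, these medians were -0.13 and -0.54. Trem2 was at -0.98 with quality weights, -0.0068 with median-of-ratios factors, -0.075 with quantile normalization, -0.093 with the hepatocyte covariate and -0.84 to -0.20 with single libraries left out.

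The hepatocyte covariate turned the direction of 24 of 78 named genes: Orc1 (0.10), Cdc6 (0.19), Mcm2 (0.17), Mcm3 (0.086), Mcm5 (0.10), Mcm10 (-0.16), Pola2 (0.26), Pold3 (0.32), Pole (0.40), Rfc2 (0.017), Rfc5 (0.051), Fen1 (0.16), Rrm2 (0.44), Chaf1b (0.20), Uhrf1 (0.083), Dnmt1 (0.32), Shmt1 (-0.024), E2f2 (0.50), E2f7 (0.19), E2f8 (0.050), Rbl1 (0.34), Ccnd1 (0.11), Cdkn1a (0.87) and Tk2 (0.10). E2f2 also turned with median-of-ratios (0.18), quantile (0.079), and ranged from -0.59 to 0.029 with single libraries left out (above 0 without MKO_PD1 replicate 1), and Tk2 with median-of-ratios (0.24) and quantile (0.19). Mcm9, near 0, ranged from -0.12 to 0.14, below 0 without Cre_PD1 replicates 1 or 2 or MKO_PD1 replicates 2 or 3. The cause of these turns was not tested. With the hepatocyte covariate, which cannot be told apart from group, the SE was 0.60 for Orc1, 0.80 for Cdc6 and 0.65 for Mcm3. Each of these SEs exceeded the difference of its gene. The labels number replicates 1 to 3 in both groups without saying that a number is shared. Deviations of same-numbered libraries from their group means correlated at -0.42, -0.26 and 0.049. With groups of 3 these values depend on each other, so whether a number pairs samples stays unknown. With the replicate block 0 replication genes, 0 of all genes and 0 pathway genes were called. Groups of 3 and a spread of 0.81 in the MKO_PD1 list mean limit what can be called.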
